A study of Mus musculus with 18 samples.

Results

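The 9 genes described here mark 2 endocrine cell types that lie within or beside the thyroid follicles and are not thyrocytes. Calca, Calcb, Chga, Chgb, Scg2 and Ret are genes of the calcitonin-producing C cells and of other neuroendocrine cells, and Pth, Gcm2 and Casr are genes of the parathyroid. They were taken by symbol (CALCA, CALCB, CHGA, CHGB, SCG2, RET, PTH, GCM2 and CASR, in the capitals the table uses) from 23626 genes, and all 9 were found. The table holds 18 messenger RNA libraries made from 9000 to 20000 mouse thyroid cells sorted for a yellow fluorescent protein (YFP) at 20 weeks, which the labels call naïve thyrocytes. The series asks what a raised level of Tert, the catalytic subunit of telomerase, does in thyroid tumours driven by BrafV600E, a change that keeps the kinase Braf active. 15 libraries came from tumours carrying BrafV600E. Of these, 4 had K5-Tert in addition (K5-Tert tumours; K5 is the usual short name of the keratin 5 promoter), 7 had a change in the promoter of Tert, Tert-123C>T (Tert-123 tumours), and 4 had BrafV600E alone (Braf tumours). The other 3 libraries were pooled samples without the Braf mutation, 1 with K5-Tert, 1 with Tert-123C>T and 1 of wild-type genotype (the K5-Tert, Tert-123 and WT pools). What switches on the YFP and BrafV600E, how many mice a pool holds, and whether each tumour library is a separate mouse are not in the labels, so p-values measure the spread between these samples.

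C cells arise with the thyroid's ultimobranchial tissue and release calcitonin, a hormone that lowers blood calcium. The Calca gene encodes calcitonin and, by alternative splicing, the neuropeptide CGRP, and its neighbour Calcb encodes a second CGRP. Like other neuroendocrine cells, C cells pack hormone into dense-core granules whose matrix proteins are the granins (Chga, Chgb and Scg2 here). Their growth factor receptor is the tyrosine kinase Ret, whose activating mutations cause medullary thyroid carcinoma in humans. Parathyroid chief cells release parathyroid hormone (Pth) when the calcium-sensing receptor (Casr) reports low calcium, and they need the transcription factor Gcm2 to form. They store their hormone together with chromogranin A, the Chga product.

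Levels are read as TPM, transcript abundances scaled for transcript length and to a fixed total. The table calls them normalized counts and does not state a unit, so levels of different genes can be set side by side only as far as this reading holds. The read depth is unknown. The RNA Rpph1 took 43.7% to 68.8% of the TPM of a library, and 10958 to 15045 genes reached 1 TPM. Tert averaged 39.3 ± 29.4 TPM over the 4 K5-Tert tumours, 5.18 ± 1.34 TPM over the 7 Tert-123 tumours and 4.59 ± 0.603 TPM over the 4 Braf tumours (SD). In the K5-Tert, Tert-123 and WT pools it was 125, 8.79 and 2.15 TPM. The 10 thyrocyte markers checked, led by thyroglobulin (Tg), summed to 409 to 1332 TPM in tumours and 26700 to 33100 TPM in pools. The Tert-123 pool stood apart from the other pools. Its summed markers were 1750 TPM for endothelial cells and 175 TPM for T cells, against at most 588 and 0.851 TPM in the K5-Tert and WT pools. Differences that lost their call or became clearly smaller without the Tert-123 pool are therefore also given without it. In bulk libraries like these, fewer cells of a type and less RNA per cell cannot be told apart.

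In the Braf-mutant tumours most of these genes fell. Of the 9, 7 passed the filter on low levels, 1 TPM in at least 4 libraries, and were tested. In the comparison of tumours with the pools that lack the Braf mutation, 6 of the 7 were lower (Calca, Chga, Chgb, Scg2, Ret and Pth) and 1, Calcb, was higher. Across the whole table limma, with p adjusted over all 14711 genes tested and a threshold of 0.05, called 24.5% of genes in this comparison, 10.3% lower and 14.2% higher. The median difference over all genes was 0.13 on the log2(TPM + 1) scale, the scale of every difference given here. Such a difference understates the change of a low gene. The fit set the Tert allele beside the Braf mutation, so each tumour group was weighed against the pool with its own Tert allele. Every library without the Braf mutation was a pool and no tumour library was labelled as one. The mutation, the tumour state and the pooling therefore cannot be told apart. With 1 pool per Tert allele, the p-values rest mainly on the spread between tumours. The other 2 genes, Casr and Gcm2, did not pass the filter on low levels and are described by their levels below. With 3 pools and a minimum of 4 libraries, a gene seen in the pools alone cannot pass this filter, whereas 1 seen in tumours alone can.

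**Figure D1:**
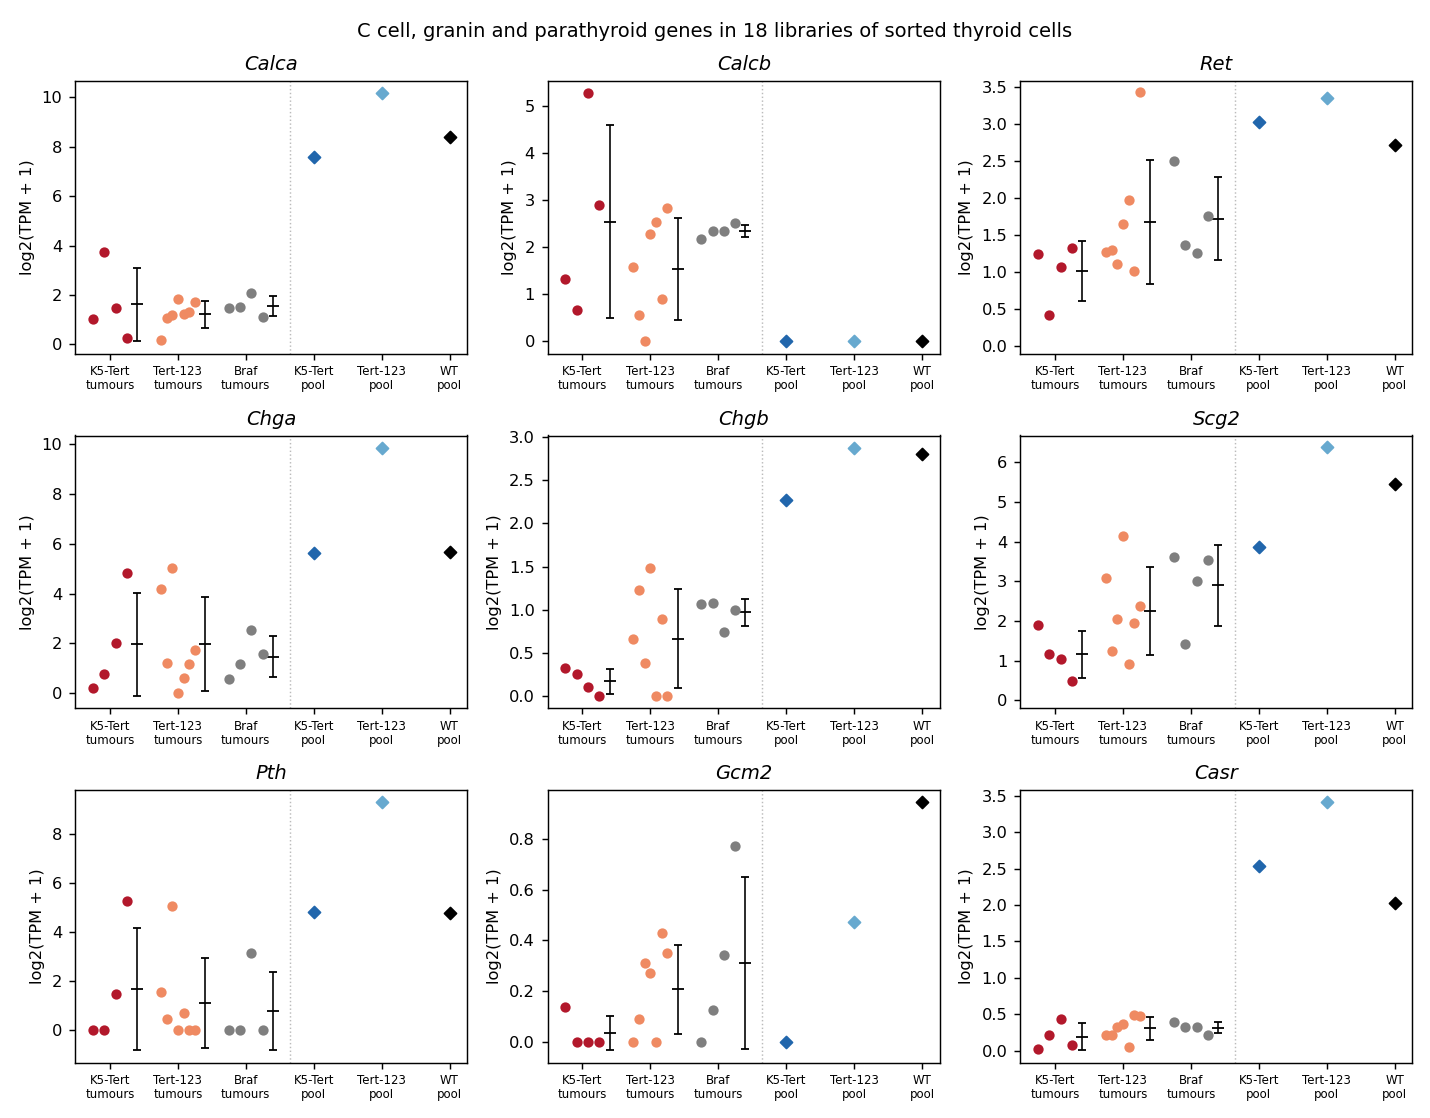
Levels of the 9 genes as log2(TPM + 1), 1 point per library, in K5-Tert, Tert-123 and Braf tumours (circles, with the group mean and SD as a black bar) and in the 3 single pools (diamonds). For Calca, Chga, Chgb and Casr every tumour lies below every pool, while Calcb is at 0 in all 3 pools and above 0 in 14 of 15 tumours.

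Calca, the calcitonin gene, showed the largest difference of the 7. The 4 K5-Tert tumours held 1.05, 12.2, 1.76 and 0.181 TPM. The 7 Tert-123 tumours held 0.139 TPM at the lowest, 1.35 TPM at the median and 2.60 TPM at the highest, and the 4 Braf tumours held 1.75, 1.88, 3.20 and 1.12 TPM. The K5-Tert, Tert-123 and WT pools held 191, 1144 and 336 TPM. Every tumour was thus below every pool, and even the highest tumour, K5-Tert tumour 2, was 15.6-fold below the lowest pool. In all, 5.45% of the genes tested had every tumour below every pool. The difference was -7.31 (SE 0.53, adjusted p = 2.25e-09, lower in 15 of 15 tumours), and -6.41 without the Tert-123 pool (adjusted p = 1.71e-07). The two-sided exact permutation test of tumours against pools gave p = 0.00123, the smallest that 816 arrangements allow. Within each Tert allele the order was the same: 4 of 4, 7 of 7 and 4 of 4 tumours lay below the pool of their own allele. Calca was the highest of the 9 genes in each of the pools. In the tumours its median of 1.46 TPM lay below the medians of Calcb (3.90 TPM) and Scg2 (2.86 TPM).

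Calcb, which encodes the second CGRP peptide, ran the other way. It was 1.51, 0.578, 37.7 and 6.51 TPM in K5-Tert tumours. In Tert-123 tumours its lowest, median and highest levels were 0, 2.01 and 6.19 TPM, and in Braf tumours it was 3.55, 4.08, 4.07 and 4.72 TPM. All 3 pools list it at 0, so no fold change is given. 14 of 15 tumours lay above the pools and 1 Tert-123 tumour was also at 0. Calcb passed the filter only through the tumours, where it is high, so its call in the main fit is no support for its direction: limma called it higher with an adjusted p of 0.0211, and of 0.0465 with no filter. The exact permutation test, which uses no filter, gave p = 0.0282. The limma call was lost with a pseudocount of 5 (adjusted p = 0.109), with quantile normalization (0.0843), without the K5-Tert pool (0.0839) and without the WT pool (0.0956). Braf tumours lay close together for Calcb (4.11 ± 0.480 TPM, SD, n = 4), while K5-Tert tumours ranged widely (11.6 ± 17.6 TPM, n = 4). The annotated transcripts of Calca and Calcb share 1.97% of the 31-base words of Calca and 2.62% of those of Calcb, with a longest shared run of 61 bases. How the authors counted reads that could come from either gene is not given in the sources used here. The table has 1 row per gene, so calcitonin and CGRP transcripts of Calca cannot be separated.

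Ret, the receptor kinase, fell less. K5-Tert tumours held 1.36, 0.337, 1.10 and 1.49 TPM. Tert-123 tumours held 1.03 TPM at the lowest, 1.45 TPM at the median and 9.82 TPM at the highest, and Braf tumours held 4.66, 1.58, 1.38 and 2.39 TPM. The pools held 7.16, 9.20 and 5.60 TPM in the order K5-Tert, Tert-123 and WT. 14 of 15 tumours lay below every pool. The exception was Tert-123 tumour 7, at 9.82 TPM the highest of all 18 libraries. The difference was -1.57 (SE 0.40, adjusted p = 0.00615; exact permutation p = 0.00613) and passed without the Tert-123 pool too (-1.51, adjusted p = 0.0390).

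The 3 granins were each called lower in tumours than in pools. Chga, the precursor of vasostatin and other peptides, was 0.159, 0.729, 3.05 and 27.7 TPM in K5-Tert tumours and 0.497, 1.28, 4.84 and 1.98 TPM in Braf tumours. In Tert-123 tumours it ran from 0 through a median of 1.32 to 31.5 TPM. The pools held 48.3 TPM (K5-Tert), 914 TPM (Tert-123) and 49.9 TPM (WT). Most tumours were thus near 1 TPM, while Tert-123 tumours 1 and 3 and K5-Tert tumour 4 reached 17.2, 31.5 and 27.7 TPM. Even these 3 stayed below every pool. The difference was -5.31 (SE 0.94, adjusted p = 0.000262) and was -3.93 without the Tert-123 pool (adjusted p = 0.0139).

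Chgb, chromogranin B, was low throughout but well separated. It was 0.247, 0.189, 0.0741 and 0 TPM in K5-Tert tumours and 1.10, 1.11, 0.665 and 0.992 TPM in Braf tumours. Tert-123 tumours ran from 0 through a median of 0.574 to 1.79 TPM, and the pools held 3.82, 6.35 and 5.98 TPM (K5-Tert, Tert-123 and WT). All 15 tumours lay below every pool (difference -2.06, SE 0.29, adjusted p = 2.29e-05). Scg2, secretogranin II, the precursor of secretoneurin, was 2.76, 1.26, 1.06 and 0.406 TPM in K5-Tert tumours and 11.3, 1.69, 7.06 and 10.6 TPM in Braf tumours. Tert-123 tumours ran from 0.885 through a median of 3.11 to 16.7 TPM, and the pools held 13.7, 82.6 and 43.3 TPM in the same order. Tert-123 tumour 4 overlapped the K5-Tert pool, and the other 14 tumours lay below every pool (difference -3.17, SE 0.53, adjusted p = 0.000131; -2.65 and 0.00573 without the Tert-123 pool). For Chga and Chgb the exact permutation p was 0.00123, the smallest possible, and for Scg2 it was 0.00245.

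The proximal promoters of 3 granin genes and Calca, which were all lower in tumours than in pools, are shown because granin and calcitonin genes are known to respond to cyclic AMP through the element TGACGTCA and its half-site TGACG. RefSeq promoters (build GRCm38.p6) were at hand for 7 of the 9 genes, all but Calcb and Ret. The 120 bases upstream of the annotated start are printed 5′ to 3′ on the strand of the gene, with TGACGTCA, or TGACG where only the half-site is present, in capitals. They are Scg2 (chr1:79440027-79440146, minus strand), Chgb (chr2:132781522-132781641, plus strand), Chga (chr12:102554821-102554940, plus strand), Calca (chr7:114636358-114636477, minus strand) and, for comparison, Pth (chr7:113388574-113388693, minus strand), which was also lower. Over the tumours the levels of Chgb and Scg2 ran together in part, with r of log2(TPM + 1) of 0.61. The other pairs of the 4 genes did not. Their r was -0.47 for Calca with Chga, -0.35 for Chga with Chgb and -0.18 for Chga with Scg2. Calca had r of 0.01 with Chgb and 0.02 with Scg2.
Scg2: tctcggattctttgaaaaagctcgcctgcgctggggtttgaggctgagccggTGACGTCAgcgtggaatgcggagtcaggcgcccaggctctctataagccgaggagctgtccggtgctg
Chgb: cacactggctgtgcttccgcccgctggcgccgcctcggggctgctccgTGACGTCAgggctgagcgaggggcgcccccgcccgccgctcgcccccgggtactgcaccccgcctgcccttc
Chga: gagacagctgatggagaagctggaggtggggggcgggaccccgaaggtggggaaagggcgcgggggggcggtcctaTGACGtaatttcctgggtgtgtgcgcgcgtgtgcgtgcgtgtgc
Calca: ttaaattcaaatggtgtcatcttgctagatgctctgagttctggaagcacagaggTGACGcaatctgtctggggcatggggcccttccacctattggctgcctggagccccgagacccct
Pth: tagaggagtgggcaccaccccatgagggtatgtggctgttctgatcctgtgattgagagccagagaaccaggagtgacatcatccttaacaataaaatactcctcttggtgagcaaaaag
The full element stands in Scg2, with its first base 68 bases before the start, and in Chgb, 72 bases before it. The half-site stands in Chga at 44 bases and in Calca at 65 bases before the start. In windows of 250 bases before the start, the full element was present in 2 of the 7 promoters and in 1.55% of all 32851 mouse promoters in the table. TGACG on either strand, which the full element also contains, was present in 4 of the 7 and in 17.8% of all. Neither string is in the windows of Pth, Casr and Gcm2. A match is a string of letters and was not tested as a binding site in these cells.

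Of the parathyroid genes, Pth fell and was the most uneven from tumour to tumour. It was 0, 0, 1.77 and 37.9 TPM in K5-Tert tumours and 0, 0, 7.92 and 0 TPM in Braf tumours. In Tert-123 tumours it ran from 0 through a median of 0.375 to 33.1 TPM. The pools held 27.8 TPM (K5-Tert), 632 TPM (Tert-123) and 26.3 TPM (WT). Tert-123 tumour 3 and K5-Tert tumour 4 overlapped the pools, and the other 13 tumours lay below all of them. The difference was -5.21 (SE 1.08, adjusted p = 0.00115; exact permutation p = 0.00735). Without the Tert-123 pool it was -3.57 (adjusted p = 0.0457), a value 1.64 smaller on the log2 scale.

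Casr, the calcium-sensing receptor, separated the groups without overlap at a lower level. Tumours held 0.0176 to 0.359 TPM with K5-Tert, 0.0380 to 0.410 TPM with Tert-123 and 0.157 to 0.312 TPM with Braf alone. The pools held 4.77, 9.62 and 3.08 TPM (K5-Tert, Tert-123 and WT). The highest tumour was thus 7.51-fold below the lowest pool (exact permutation p = 0.00123, the smallest possible). Casr reached 1 TPM in too few libraries for the main fit, and in the fit with no filter its difference was -2.41 (adjusted p = 1.28e-07 over 22693 genes). Gcm2, the transcription factor of parathyroid formation, stayed under 1 TPM in all 18 libraries. It was 0 to 0.0995 TPM in K5-Tert tumours, 0 to 0.347 TPM in Tert-123 tumours and 0 to 0.711 TPM in Braf tumours, against 0, 0.388 and 0.928 TPM in the K5-Tert, Tert-123 and WT pools. It did not pass (no filter, adjusted p = 0.226; exact permutation p = 0.0723), and with the K5-Tert pool at 0 the groups overlapped.

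Pth and Chga were high in the same libraries. Among tumours both were highest in Tert-123 tumour 3 (33.1 TPM of Pth and 31.5 TPM of Chga) and K5-Tert tumour 4 (37.9 and 27.7 TPM), and Braf tumour 3 held the highest level of both among Braf tumours (7.92 and 4.84 TPM). Tert-123 tumour 1 departed from this, with 17.2 TPM of Chga beside 1.96 TPM of Pth. As a description over the 15 tumours, Pearson's r of log2(TPM + 1) was 0.88 and Spearman's rho 0.77. It was 0.66 without the 2 tumours farthest from the median and 0.84 within the 7 Tert-123 tumours. Of 14710 other genes, Pth was the one most like Chga and Chga the one most like Pth. The gene next in order for both was Cfap300, at r = 0.78 with Chga and 0.81 with Pth and at only 0.783 to 4.09 TPM in the tumours. With TMM-type factors r of Pth and Chga was 0.89, and the next gene was Kif9 instead. Among the pools the pair was again highest in 1 library, the Tert-123 pool. The ratio of Pth to Chga was 0.577, 0.692 and 0.527 in the K5-Tert, Tert-123 and WT pools. It was 0.114 to 1.64 in the 5 tumours with at least 1 TPM of each. Calca did not follow: it was 0.181 TPM in K5-Tert tumour 4 and 1.26 TPM in Tert-123 tumour 3. Its r with Chga was -0.47 over the 15 tumours, and r was above 0.5 for 2 of the 36 pairs among the 9 genes, Pth with Chga and Chgb with Scg2 (0.61).

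**Figure D2:**
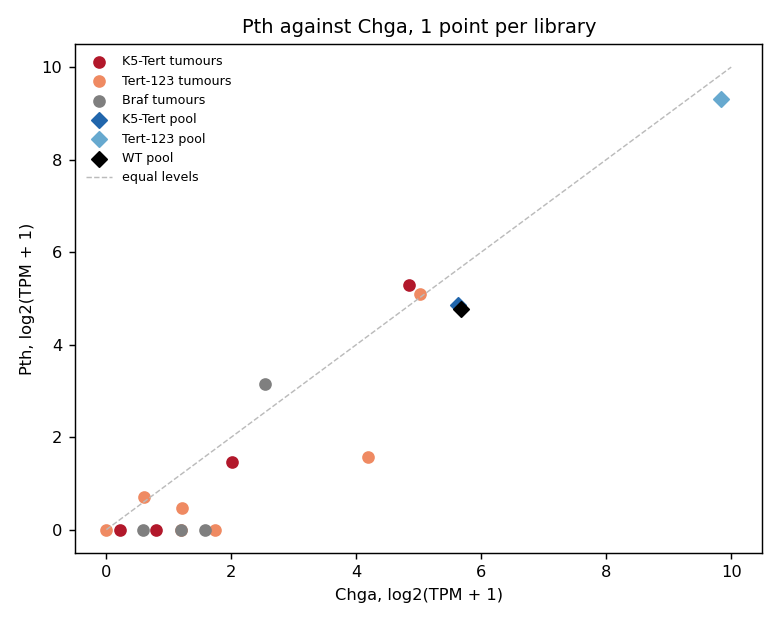
Level of Pth against that of Chga, both as log2(TPM + 1), with 1 point per library, tumours as circles and pools as diamonds, and a dashed line of equal levels. Most tumours lie near the lower left corner, Tert-123 tumour 3 and K5-Tert tumour 4 lie close to the K5-Tert and WT pools, and the Tert-123 pool is highest on both axes.

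Calcb and Scg2 had other genes nearest to them. The 3 genes most like Calcb over the 15 tumours were D16Ertd472e (r = 0.90), Dck (0.85) and Cxcl3 (0.82), and those most like Scg2 were 1700022E09Rik (0.87), Speer6-ps1 (0.86) and Slc13a2 (0.82). None of the 3 most like a gene was itself one of the 9, except for Pth and Chga with each other.

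Among the 15 tumours, neither Tert allele was accompanied by a change in these genes that passed the test. In K5-Tert against Braf tumours limma called 0 of the 7 genes tested, beside 15.4% of all genes (58 higher and 2205 lower). That split depended on the scaling, with 448 higher and 445 lower under TMM-type factors and 199 and 452 under quantile normalization. The median over all genes was -0.48. Scg2 came closest, with a difference of -1.74 (SE 0.59, adjusted p = 0.0513) that is -1.26 beyond the median of all genes. 3 of 4 K5-Tert tumours lay below every Braf tumour, and the exact permutation p was 0.0571. Scg2 passed with a pseudocount of 0.5 (adjusted p = 0.0475) and without Braf tumour 2, Tert-123 tumour 4, Tert-123 tumour 5 or K5-Tert tumour 1 (0.0403, 0.0254, 0.0484 and 0.0250). Over all alternatives its adjusted p ran from 0.0250 to 0.432.

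Chgb was also low with K5-Tert: all 4 K5-Tert tumours, at 0 to 0.247 TPM, lay below every Braf tumour, at 0.665 to 1.11 TPM. Of all genes tested, 18.5% did not overlap between these groups. The exact permutation p was 0.0286, the smallest that 70 arrangements allow, and limma gave a difference of -0.80 (SE 0.33, adjusted p = 0.0942). The remaining genes overlapped. Their differences in K5-Tert against Braf tumours were 0.08 for Calca, 0.20 for Calcb, -0.71 for Ret, 0.49 for Chga and 0.90 for Pth, with adjusted p from 0.252 to 0.923. The sign of the values for Calca, Calcb, Chga and Pth turned when 1 or 2 libraries were left out. Xist, expressed in females, reached 10 TPM in 1 of 4 K5-Tert and 4 of 4 Braf tumours, and with Xist as a covariate the difference of Scg2 was -1.25 (adjusted p = 0.279) and that of Chgb -0.46 (0.457). The abundant nuclear RNA Malat1 was 5902, 1191, 1908 and 1050 TPM in K5-Tert tumours and 5762 to 7496 TPM in Braf tumours, and its part in these differences was not tested. In the sample names, K5-Tert tumours have higher numbers than any other tumour, and any difference between cohorts cannot be told apart from the K5-Tert allele.

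In Tert-123 against Braf tumours limma called 0 of the 7 and 0 of all 14711 genes, with 258 genes at an unadjusted p under 0.05. The differences ran from -0.81 (Calcb) to 0.52 (Chga), with adjusted p of 0.9998 for each of the 7. In K5-Tert against Tert-123 tumours it called 0 of the 7, beside 20.5% of all genes (70 higher and 2946 lower, 597 and 415 under TMM-type factors). There Scg2 differed by -1.10 (SE 0.52, adjusted p = 0.127), Ret by -0.67 (adjusted p = 0.210) and Chgb by -0.49 (adjusted p = 0.207), against a median of -0.47 over all genes. The difference of tumours from pools, called the Braf effect here although pooling cannot be told apart from it, was also compared between Tert alleles. The largest difference among the 7 was for Pth, whose effect with Tert-123C>T minus that without a Tert allele was -4.21 (adjusted p = 0.607), and none passed with either allele.

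**Figure D3:**
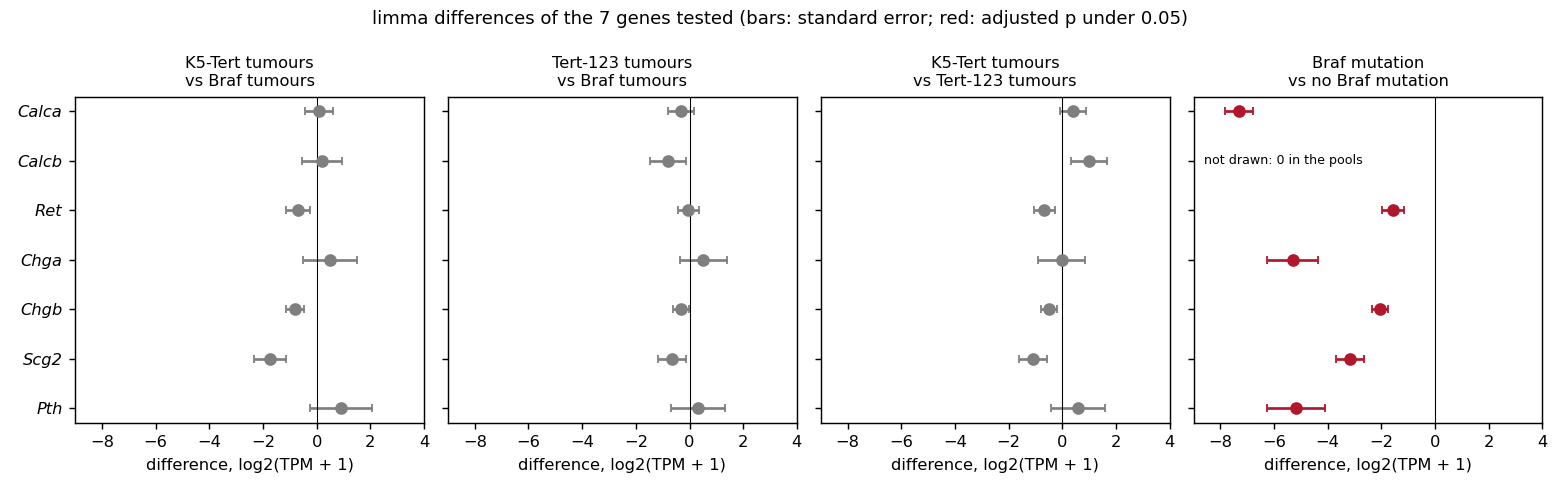
Differences of mean log2(TPM + 1) fitted by limma for the 7 genes tested, with standard errors, in K5-Tert against Braf tumours, Tert-123 against Braf tumours, K5-Tert against Tert-123 tumours, and tumours with the Braf mutation against pools without it. Grey points did not pass an adjusted p of 0.05 and red points did. In the 3 tumour comparisons all 7 are grey, and in the fourth panel 6 are red and below 0, with Calcb left out because the pools are at 0.

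The 3 pools, without a Braf mutation, can be compared by value alone, with 1 library each. The Tert-123 pool was highest for 7 of the 9 genes, the exceptions being Calcb (0 in all 3) and Gcm2 (highest in the WT pool). Its excess differed by gene. Against the WT pool it held 1144 and 336 TPM of Calca, 914 and 49.9 TPM of Chga, and 632 and 26.3 TPM of Pth, but 6.35 and 5.98 TPM of Chgb. The K5-Tert pool was close to the WT pool for Pth (27.8 and 26.3 TPM) and Chga (48.3 and 49.9 TPM), and lower for Calca (191 and 336 TPM) and Scg2 (13.7 and 43.3 TPM). Scg3, another granin, was 0.958 TPM in the K5-Tert pool and 19.0 TPM in the WT pool. The share of sorted cells that were not thyrocytes was not measured.

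The wider set of neuroendocrine genes moved in both directions. Of 34 other C cell, granin and neuroendocrine genes, 20 were tested. In tumours against pools 5 were lower, 2 were higher and 13 did not pass, beside 10.3% lower and 14.2% higher among all genes. This count misses genes seen mainly in the pools: of the 14 not tested, 9 reached 1 TPM in a pool, among them the prohormone convertase genes Pcsk1 and Pcsk2. Of the 20 tested, 5 were below 1 TPM in every pool. Scg3 fell (-2.90, SE 0.48, adjusted p = 0.000125; -2.03 without the Tert-123 pool and -4.07 without the K5-Tert pool). It held 0 to 1.44 TPM in the tumours, against 0.958, 38.4 and 19.0 TPM in the K5-Tert, Tert-123 and WT pools. Cacna1a, a neuronal calcium channel subunit, and Sv2a, a synaptic vesicle protein, fell by 1.81 and 1.23 on the log2 scale (adjusted p = 0.000309 and 0.00584). Foxa2, a transcription factor of foregut endoderm that C cells express in mice, rose by 2.38 (SE 0.43, adjusted p = 0.000345). It held 2.81 to 19.6 TPM in the tumours and 0, 3.95 and 0.922 TPM in the 3 pools, and 1 Tert-123 tumour lay below the Tert-123 pool. It passed the filter through the tumours, so this call is no support for its direction. Over the alternatives, which include a fit with no filter, the adjusted p of Foxa2 was at most 0.00326. Its paralogue Foxa1 fell (-1.10, adjusted p = 0.0420), at 0.0592 to 4.35 TPM in the tumours and 7.64, 2.29 and 2.99 TPM in the pools, and so did Eno2, the neuron-specific enolase (-1.02, adjusted p = 0.0348). Foxa1 and Eno2 were added after their values were seen and were not recomputed under the alternatives. The neuronal tubulin Tubb3 rose by 1.57 (adjusted p = 0.00281; not past the threshold with quantile normalization, 0.0568). Tubb3 was 0, 0 and 0.330 TPM in the K5-Tert, Tert-123 and WT pools. It passed the filter only through the tumours, so its call is no support for its direction. Scg5, a chaperone of the prohormone convertase PC2, was chosen after its values were seen. Among the tumours it had the highest median of the granin family genes named here, at 15.1 to 431 TPM in the tumours and 28.4 to 114 TPM in the pools, and did not pass (0.67, adjusted p = 0.457). Among tumours Cacna1d, another calcium channel subunit, was lower with K5-Tert than with Braf alone (-1.29, adjusted p = 0.00875; 0.0687 with quantile normalization, 0.0578 with Xist as a covariate and 0.124 without K5-Tert tumours 2 and 4), at 0.840 to 1.63 TPM against 3.59 to 6.33 TPM.

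The co-receptors and ligands of Ret moved in different directions from Ret and from each other. Ret signals only when a ligand of the GDNF family is held by a GFRα co-receptor, and Gfra4, the co-receptor for persephin, is expressed by C cells. Of 10 such genes 7 were tested. In tumours against pools 3 were higher, 3 lower and 1 did not pass, beside 14.2% higher and 10.3% lower among all genes. Of the 7, 2 (Gdnf and Gfra2) were below 1 TPM in every pool. Gfra4 was 32.7, 33.4, 12.8 and 18.7 TPM in K5-Tert tumours, 39.4 to 172 TPM in Tert-123 tumours and 90.2, 56.4, 111 and 136 TPM in Braf tumours. The pools held 5.54, 5.28 and 9.88 TPM. All 15 tumours lay above every pool, which 5.17% of genes did, and Gfra4 rose by 2.83 (SE 0.39, adjusted p = 1.64e-05). Within the tumours it was lower with K5-Tert than with Braf alone (-2.0, SE 0.42, adjusted p = 0.0104; 0.0670 with TMM-type factors, 0.124 without K5-Tert tumours 2 and 4) and than with Tert-123 (-1.54, adjusted p = 0.0134). The call against Tert-123 tumours was lost with TMM-type factors (0.149) and quantile normalization (0.103). It was also lost without K5-Tert tumour 4 (0.0625) and without K5-Tert tumours 2 and 4 (0.193). All 4 K5-Tert tumours lay below every other tumour. Groups did not overlap in 18.5% of genes for K5-Tert against Braf tumours and in 5.57% for K5-Tert against Tert-123 tumours. In these comparisons the median over all genes was -0.48 and -0.47, and 15% and 20% of all genes were called lower. The ligands Artn (artemin) and Nrtn (neurturin) fell, by 2.20 and 1.49 on the log2 scale (adjusted p = 0.000277 and 0.00287). Artn was 0.315 to 4.69 TPM in the tumours against 24.3, 11.5 and 7.46 TPM in the pools, and Nrtn 2.11 to 8.93 TPM against 27.3, 12.4 and 10.1 TPM. The ligand Gdnf, at 0, 0.044 and 0.421 TPM in the K5-Tert, Tert-123 and WT pools, rose by 1.32 (adjusted p = 0.00605; 0.194 with quantile normalization). The co-receptor Gfra2, listed at 0 in all 3 pools, was 0.413 to 10.5 TPM in the tumours (adjusted p = 0.0118; 0.0779 with a pseudocount of 5, 0.0665 with quantile normalization and 0.0849 without the Tert-123 pool). Gdnf and Gfra2 passed the filter through the tumours alone, so their calls are no support for their direction. Gdf15, a stress hormone that signals through the co-receptor Gfral, fell by 1.03 (adjusted p = 0.0449), a call kept in only 5 of the 18 fits that left out 1 library. It was lost without any single Braf tumour (0.0507 to 0.0613), without several of the other tumours, without the K5-Tert pool (0.244) or the WT pool (0.170), and with no filter (0.0750).

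Adm and Adm2, peptides of the calcitonin family, fell, while Ramp1, a part of the CGRP receptor, rose. Calcrl is the receptor that CGRP and adrenomedullin share, and the RAMP proteins decide which of them it binds, Ramp1 making it the CGRP receptor. Of 9 genes of this family 7 were tested. In tumours against pools 3 were lower, 2 higher and 2 did not pass, beside 10.3% lower and 14.2% higher among all genes. The peptide genes Adm and Adm2 fell by 2.81 and 2.50 on the log2 scale (adjusted p = 0.00027 and 5.23e-05). For both, every tumour lay below every pool, which 5.45% of genes did. Calcrl fell by 1.76 (SE 0.41, adjusted p = 0.00312). This rested on the Tert-123 pool, at 38.4 TPM, and without it the difference was -1.11 (adjusted p = 0.0951). Calcrl is also an endothelial gene, and the summed endothelial markers were 16.7 to 190 TPM in tumours and 192, 1750 and 588 TPM in the K5-Tert, Tert-123 and WT pools. Their part in the result was not tested. Ramp1 was 12.03, 13.6, 21.9 and 19.4 TPM in K5-Tert tumours, 10.9 to 28.7 TPM in Tert-123 tumours and 22.3 to 27.5 TPM in Braf tumours, against 0, 3.90 and 0 TPM in the pools. It rose by 3.63 (SE 0.34, limma adjusted p = 1.07e-07), and all 15 tumours lay above every pool, which 5.17% of the genes tested did. Ramp1 reached 1 TPM in 1 pool only and passed the filter through the tumours, so neither this call nor that share supports its direction. Over the alternatives, which include a fit with no filter, its adjusted p was at most 7.98e-07.

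Of 24 genes of parathyroid development, calcium sensing and the response to Pth, 19 were tested, and in tumours against pools 5 were higher and 0 lower, beside 14.2% higher and 10.3% lower among all genes. Of the 19, 2 were below 1 TPM in every pool and were tested only through the tumours. Pthlh, which encodes the Pth-related peptide that acts on the Pth receptor and raises blood calcium when tumours release it, rose most. It was 60.1, 53.5, 42.3 and 52.0 TPM in K5-Tert tumours, 70.1 to 150 TPM in Tert-123 tumours and 43.1, 101, 88.5 and 162 TPM in Braf tumours. The pools held 2.11, 0 and 0 TPM (K5-Tert, Tert-123 and WT). Its difference was 5.71 (SE 0.37, limma adjusted p = 4.52e-10). Pthlh reached 1 TPM in 1 pool only and passed the filter through the tumours, so this call is no support for its direction. Over the alternatives, which include a fit with no filter, its adjusted p was at most 6.65e-09. All 15 tumours lay above every pool. By their levels, Pth and Pthlh differed from the pools in opposite directions. Cyp24a1, which inactivates vitamin D, was 1.01 to 16.5 TPM in the tumours and listed at 0 in all 3 pools. It passed the filter only through the tumours, so no test is given for it. Fgfr1, the receptor through which FGF23 acts with Klotho, rose by 1.44 (adjusted p = 0.000633). Cdc73, the parafibromin gene mutated in human parathyroid carcinoma, and Six4 were lower with K5-Tert than with Braf alone (-0.83 and -0.82, adjusted p = 0.0472 and 0.0485). Neither passed with TMM-type factors (0.226 and 0.219) or without K5-Tert tumours 2 and 4 (0.504 and 0.523). Most alternatives lost these calls. Cdc73 kept its call in 2 of 9 other settings and 5 of 15 fits without 1 tumour, and Six4 in 1 of 9 and 3 of 15.

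**Figure D4:**
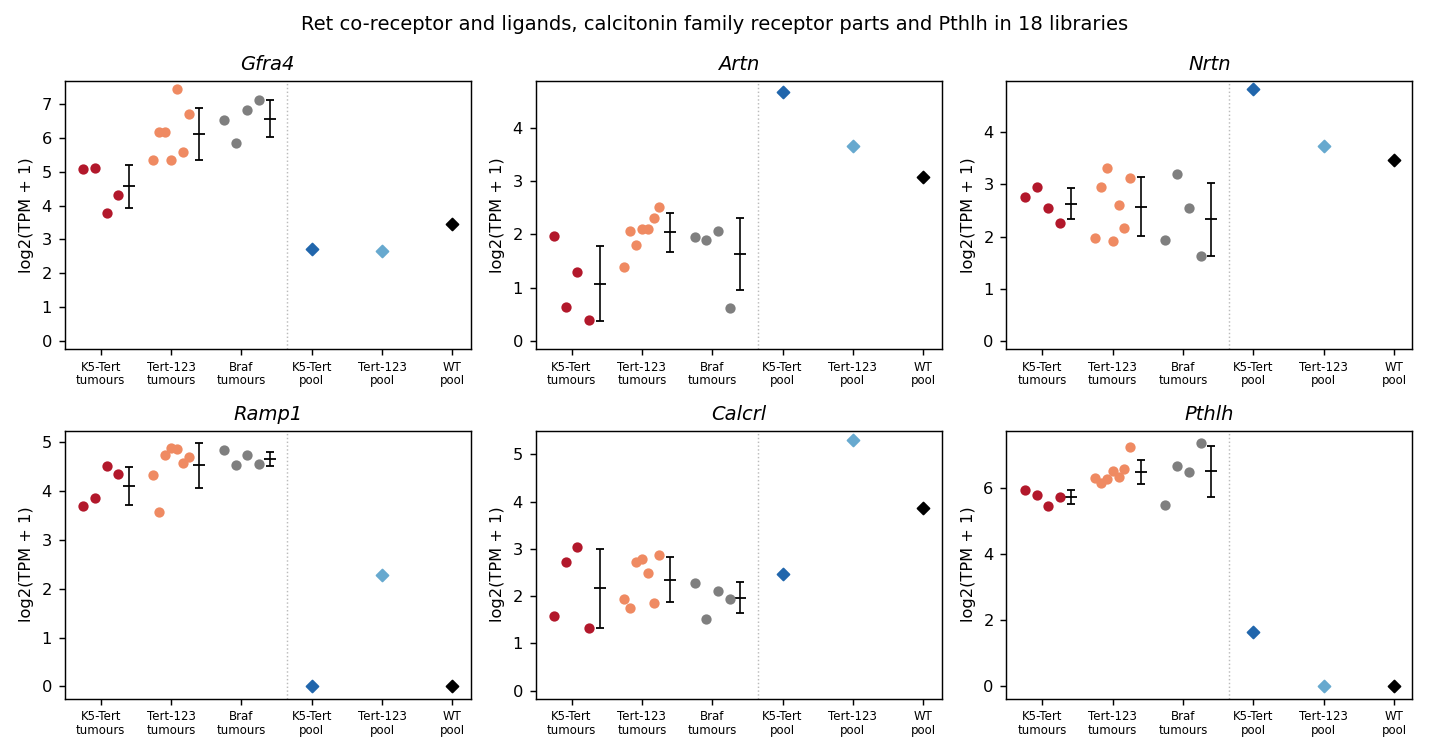
Levels as log2(TPM + 1), 1 point per library, of the Ret co-receptor Gfra4, the Ret ligands Artn and Nrtn, the CGRP receptor parts Ramp1 and Calcrl, and Pthlh, in K5-Tert, Tert-123 and Braf tumours (circles, with mean and SD) and in the 3 single pools (diamonds). Gfra4, Ramp1 and Pthlh are higher in all 15 tumours than in any pool, Artn and Nrtn are lower in all 15, and Calcrl overlaps.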

How the data were processed

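RNA of YFP-sorted cells went into low-input libraries (14 PCR cycles, paired 100 bp reads), per the labels' protocols. Aligner, counter, strand setting, genome build and annotation: not given in the sources used here. The deposited values, which the authors call normalized counts, were read as TPM because all 18 columns sum to 1000000 and the smallest steps within a column differ between genes, as after division by length. No read totals were at hand, so counting error cannot be stated. From 23652 entries, 26 whose names had become dates were dropped (up to 0.0455% of a library). Of the 23626 others, 23499 matched a mouse symbol.

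The 14711 genes with at least 1 TPM in at least 4 libraries were fitted as log2(TPM + 1), a pseudocount of 1, with limma 3.58.1 (R 4.3.3, mean-variance trend). Tests were two-sided, with Benjamini-Hochberg adjustment over these genes and a threshold of 0.05. The 15 tumours were fitted in 3 groups (12 residual degrees of freedom) and, for the Braf comparison, all 18 libraries with the Tert allele as a covariate (14 residual degrees of freedom). Exact permutation tests went through all arrangements of the libraries and compared group means of log2(TPM + 1). Spearman's rho was computed with scipy 1.17.1. Groups came from the genotype labels, and libraries are numbered within a group in the order of the series. Alternatives were other pseudocounts and filters, TMM-type factors, quantile normalization, removal of Rpph1 from the total, an Xist covariate, fits without the third group, and removal of single libraries. Removal of K5-Tert tumours 2 and 4 together and of Tg from the total were chosen after seeing the data. The fit was first tested on simulated data with known changes.

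The 9 genes, the 4 companion lists and the marker lists were chosen with earlier results of these data known. Named companions are, per list, up to 6 genes past the threshold in any comparison, smallest p first. Some results that this rule or the marker lists give are not reported here; the genes stay in every fit and count. Genes most like a gene are the 3 with the highest Pearson r over the 15 tumours, for the 4 genes with the highest tumour mean.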

Additional observations from a re-analysis of the deposited data

Results flagged for a closer look

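Some single tumours stood away from the rest of their group by Dixon's test, for which chance alone gives about 1 in 20 with normally distributed values. It was applied to 105 groups of 4 to 7 libraries and singled out 10 values. Among the 9 genes these were Ret in Tert-123 tumour 7 (9.82 TPM), Pth in Tert-123 tumour 3 (33.1 TPM) and in Braf tumour 3 (7.92 TPM), and Gcm2 in K5-Tert tumour 1 (0.0995 TPM, with the other K5-Tert tumours at 0). Among the companion genes they were Pthlh in Tert-123 tumour 7 (150 TPM, the highest of its group), Ramp1 in Tert-123 tumour 2 (10.9 TPM, the lowest), Adm2 in Braf tumour 1 (0.265 TPM, the highest), Artn in Braf tumour 4 (0.542 TPM, the lowest) and Gdf15 in Braf tumour 3 (23.2 TPM, the highest). Braf itself was lowest of its group in Braf tumour 1, at 5.92 TPM. Pth in Braf tumours and Gcm2 in K5-Tert tumours were above 0 in 1 library each, which the test singles out at any level. The stated chance rate does not hold for them.

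For 2 companion genes the difference of tumours from pools (the Braf effect) differed between Tert alleles in a fit with an interaction term. Ramp3, the RAMP that makes an adrenomedullin receptor of Calcrl, was 0.961 to 22.7 TPM in K5-Tert tumours and 0 TPM in the K5-Tert pool, against 0.143 to 3.67 TPM in Braf tumours and 14.3 TPM in the WT pool. The Braf effect with K5-Tert minus that without a Tert allele was 5.14 on the log2 scale (limma, adjusted p = 0.0474). For Scg3 the same difference was 3.17 (adjusted p = 0.0333), with 0 to 1.23 TPM in K5-Tert tumours and 0.958 TPM in the K5-Tert pool, against 0.241 to 1.44 TPM in Braf tumours and 19.0 TPM in the WT pool. Each pool is 1 library, so both rest on single values, and 387 of 14711 genes passed this test.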

How the results depend on the processing

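No paired analysis was possible because the labels number no replicates, so libraries were numbered in the order of the series and pair nothing. The 6 genes called lower in tumours against pools (Calca, Chga, Chgb, Scg2, Ret and Pth) kept direction and call under every alternative in which they were tested, and Calcb lost its call under 4. Of the 9 genes, 4 were called with the filter at 10 TPM, where fewer were tested, and 6 to 7 when single libraries were left out; all genes called were then 1991 and 2558 to 3954. In K5-Tert against Braf tumours 1 of the 9 (Scg2) was called with a pseudocount of 0.5, and 0 to 1 when single libraries were left out.

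The number of all genes called in K5-Tert against Braf tumours was 1421 with no filter, 893 with TMM-type factors, 651 with quantile normalization, 215 with Xist as a covariate, 790 in a fit of the 2 groups alone, 21 without K5-Tert tumours 2 and 4, and 319 to 5310 when single libraries were left out. Against Tert-123 tumours it was 1012 with TMM-type factors, 689 with quantile normalization, 1835 without Rpph1, 1779 with Xist, 1017 in a fit of the 2 groups alone, 12 without K5-Tert tumours 2 and 4, and 442 to 5925 when single libraries were left out. In Tert-123 against Braf tumours 1 gene was called with no filter and 1 without Rpph1. The cause was not tested.

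Differences that did not pass changed sign as follows, on the log2 scale, the cause not tested. For K5-Tert against Braf tumours, Calca was -0.02 with a pseudocount of 0.5, -0.14 with Xist and -0.29 without K5-Tert tumours 2 and 4, where Chga was -0.36 and Pth -0.06. When single libraries were left out, Calca ran from -0.62 to 0.54, Calcb from -0.71 to 0.82, Chga from -0.47 to 1.08 and Pth from -0.30 to 1.69. For Tert-123 against Braf tumours, Ret was 0.01 with a pseudocount of 5 and ran from -0.34 to 0.22, and Pth from -0.34 to 1.12. For K5-Tert against Tert-123 tumours, Chga was 0.39 with TMM-type factors, 0.36 with quantile normalization, 0.13 without Rpph1 and 0.34 with Xist. Over single libraries it ran from -0.99 to 0.56, Calca from -0.30 to 0.86 and Pth from -0.63 to 1.23. Pth was -0.38 without K5-Tert tumours 2 and 4.

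Low levels limit what can be seen: Chgb, Casr and Gcm2 stayed under 2 TPM in every tumour, where an unknown depth gives no limit for a value of 0. The pools are 1 library a genotype, and the differences of Calca, Chga and Pth from the pools were smaller without the Tert-123 pool, as given beside each.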
